A study of Mus musculus with 1012 samples.

Results

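Live-seq draws a small volume of cytoplasm from a living cell with a fluidic force microscope probe and sequences the polyadenylated RNA in it. The biopsies described here came from undifferentiated adipose stem and progenitor cells (ASPCs, labelled ASPC_Pre), and were chosen by label alone as the Live-seq libraries of ASPCs with no adipogenic treatment. There were 61 such libraries among 296 Live-seq libraries and 1012 libraries in all, 18 of them in batch 8_8 and 43 in batch 9_4. The ASPCs were primary cells that the study's methods describe as isolated from subcutaneous fat of young adult female C57BL/6J mice. For sequential sampling, the methods describe barcoded, GFP-expressing ASPCs mixed with unlabelled ASPCs in a dense culture, without naming a batch, and 31 of the 43 biopsies of batch 9_4 were labelled as the first of a double extraction, that is, the same cell was sampled again after adipogenic induction. Conventional single-cell RNA sequencing (scRNA-seq) of 60 dissociated, whole ASPC_Pre cells (16 in batch 8_8 and 44 in batch 9_1) served as the reference for the undifferentiated state. The 44 biopsies of IBA cells, an immortalised brown preadipocyte line from male C57BL/6J mice, the 37 ASPC biopsies taken after the adipogenic cocktail (ASPC_Post) and the biopsies of RAW264.7 macrophages, mock-treated or given lipopolysaccharide (LPS), were used for comparison. The labels give these macrophages as RAW264.7 or as its subline RAW-G9. Per the methods, RAW-G9 carries a Tnf-mCherry reporter and a relA-GFP fusion protein. The labels do not say how many mice gave the ASPCs of a batch, so cells of a batch share their source and the batch was the unit of replication.

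ASPCs are the fibroblast-like stromal cells of fat from which new adipocytes form. They secrete the collagens and glycoproteins of the tissue's matrix and the enzymes that cross-link it, and on a stiff culture surface such cells can take on actin stress fibres and smooth muscle actin, as myofibroblasts do. Commitment to the adipocyte fate runs through CEBP transcription factors and PPARG, and only afterwards do genes of lipid storage such as Adipoq and Plin1 come on. In adipose tissue, stromal cells marked by DPP4, by ICAM1 or by CD142 (the product of F3) have been described as distinct subsets.

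The reads behind a biopsy differed between the batches. Total counts ran from 83553 to 819268 in batch 8_8 (median 228158) and from 155123 to 1502418 in batch 9_4 (median 509637). After the genes seen in negative controls and the ribosomal protein genes had been set aside, the kept counts had medians of 160633 and 364929. All values below are kept counts or counts scaled to the library's kept total (CPM, counts per 1000000). The counts are reads without molecular identifiers, so the exact 95% intervals given cover counting error only.

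Several libraries stood apart from their labels or from their batch. Transcripts of Y-linked genes (Ddx3y, Eif2s3y, Kdm5d and Uty) had counts in 6 of 18 biopsies of batch 8_8 and 25 of 43 of batch 9_4, while Xist, the RNA that coats the inactive X chromosome of female cells, had counts in 0 of 18 and 2 of 43, although the methods give female mice. The same pattern held in the whole cells, where 8 of 16 and 35 of 44 had Y-linked counts and 4 in each batch had Xist. The EGFP transgene had counts in 0 of 18 biopsies of batch 8_8 and 29 of 43 of batch 9_4, and in 21 of the 31 biopsies labelled as the first of a double extraction. Whole cells of batch 9_1 had EGFP counts in 37 of 44. Counts that lead below were also taken without 7 biopsies: 1 of batch 8_8 with fewer than 1000 genes, and 6 of batch 9_4, of which 4 had over 20% mitochondrial counts and 2 had Xist. No pair of biopsies held identical counts, and the highest Pearson correlation between any pair was 0.839.

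Biopsies of batch 9_4 held many more genes than those of batch 8_8, and reads did not make up the difference. A biopsy of batch 8_8 had at most 3653 genes with at least 1 count (median 1636) and one of batch 9_4 had 1041 to 9159 (median 6058). When every library was thinned to 50000 kept counts, the medians were 1417 genes (at most 2754, SD 615.6) and 4730 genes (at most 6522, SD 1731). The batches still overlapped, since the poorest biopsies of batch 9_4 lay inside the range of batch 8_8. Whole cells of the same batch label as the poorer biopsies were not poor: at the same 50000 counts they gave a median of 6365 genes (3700 to 7348) in batch 8_8, so that the ranges of biopsies and whole cells did not overlap there, against 6800 (2061 to 7927) in batch 9_1. No whole ASPC carried the label of batch 9_4. In batch 8_8 the number of genes followed the kept counts closely (Spearman rho 0.866 over 18 biopsies) and in batch 9_4 less so (rho 0.515 over 43). Biopsies in which 50 genes took a larger share of the counts had fewer genes at equal depth, with rho of -0.775 and -0.308. In batch 9_4, the 31 biopsies of the double extraction had a median of 6147 genes and the 12 others 5846.

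**Figure D1:**
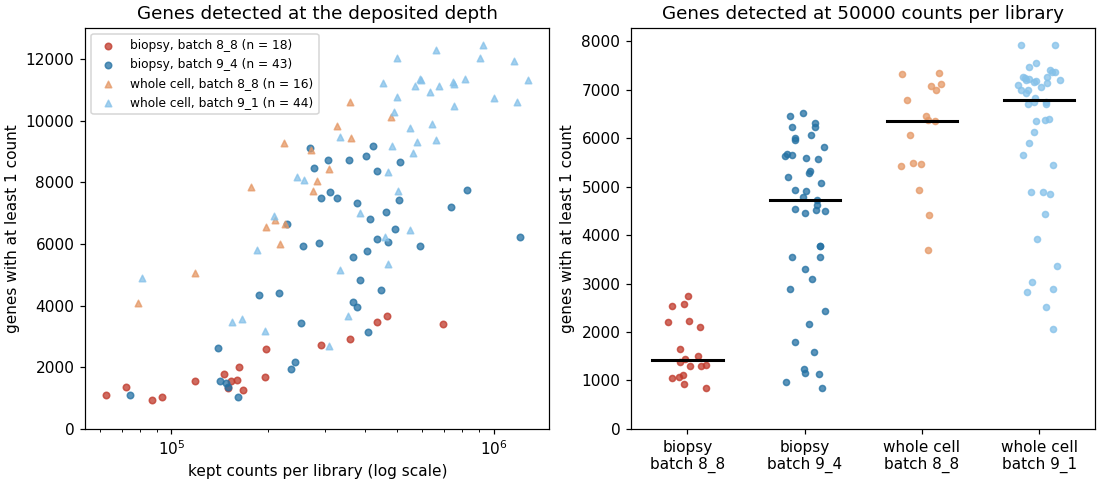
Genes with at least 1 count in single ASPC_Pre libraries, plotted against kept counts on a log axis (left) and after thinning every library to 50000 kept counts (right). Each point is 1 library, and circles or triangles separate biopsies from whole cells. At equal counts the median of batch 8_8 biopsies (1417 genes) is below that of batch 9_4 (4730), with overlapping points. Only the whole cells of batch 8_8 lie wholly above all biopsies of batch 8_8.

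The profiles within a batch were also less alike in batch 8_8. Between pairs of biopsies the Pearson correlation of log2(CPM + 1) had a median of 0.319 (0.235 to 0.482) in batch 8_8 and 0.602 (0.292 to 0.839) in batch 9_4, and 0.307 and 0.562 after thinning. Summed over cells, the thinned biopsies of batch 9_4 correlated with the whole cells of batch 9_1 at 0.938 over 13563 genes, and those of batch 8_8 with the whole cells of batch 8_8 at 0.728. These correlations are across genes, which are not independent replicates, and the sums of batch 8_8 hold fewer counts.

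The 4 genes used as markers of these biopsies differed in how many biopsies held them. Sparc, a secreted glycoprotein that binds collagen (chr11:55394500-55423183), had counts in 18 of 18 biopsies of batch 8_8 and 42 of 43 of batch 9_4. Its single-cell values were 75.2, 3199 and 9832 CPM (lowest, median and highest) in batch 8_8 and 0, 6900 and 24971 CPM in batch 9_4. Gpx3, a secreted glutathione peroxidase (chr11:54902453-54910377), had counts in 15 of 18 and 43 of 43 biopsies, with 0, 247.9 and 10432 CPM against 61.2, 3911 and 24209 CPM. Both were thus higher in the median biopsy of batch 9_4, with ranges that overlapped. The sums over all biopsies were 2784 and 7471 CPM for Sparc and 698.8 and 5083 CPM for Gpx3, against 5038 and 4491 CPM for Sparc and 523.02 and 2428 CPM for Gpx3 in the whole cells of batches 8_8 and 9_1. In such sums, fewer cells with a transcript and less of it per cell cannot be told apart.

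Actg2 and Cnn1, an actin and an actin-binding calponin of smooth muscle, went the other way between the batches. Actg2 (chr6:83512905-83536265) had counts in 9 of 18 biopsies of batch 8_8 and 15 of 43 of batch 9_4, with single-cell values of 0, 80.5 and 8866 CPM and of 0, 0 and 2046 CPM. It exceeded 1000 CPM in 7 of 18 biopsies and in 1 of 43, and 3 biopsies held 69.3% and 66.2% of its summed CPM. Cnn1 (chr9:22099216-22109630) had counts in 15 of 18 and 33 of 43 biopsies, with 0, 850.6 and 4327 CPM and 0, 118 and 8353 CPM. As sums, Actg2 was at 2390 CPM in the biopsies of batch 8_8 and 102.98 CPM in those of batch 9_4, and Cnn1 at 1643 and 420 CPM. The whole cells lay below the biopsies of batch 8_8 for both genes, with 51.5 and 97.8 CPM of Actg2 and 58.4 and 305.8 CPM of Cnn1 in batches 8_8 and 9_1. After the adipogenic cocktail, the biopsies of batch 9_4 summed to 3.25 CPM of Actg2 and 31.3 CPM of Cnn1, but to 14388 CPM of Gpx3 and 10581 CPM of Sparc, so that the markers differed in direction between ASPC_Pre and ASPC_Post.

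**Figure D2:**
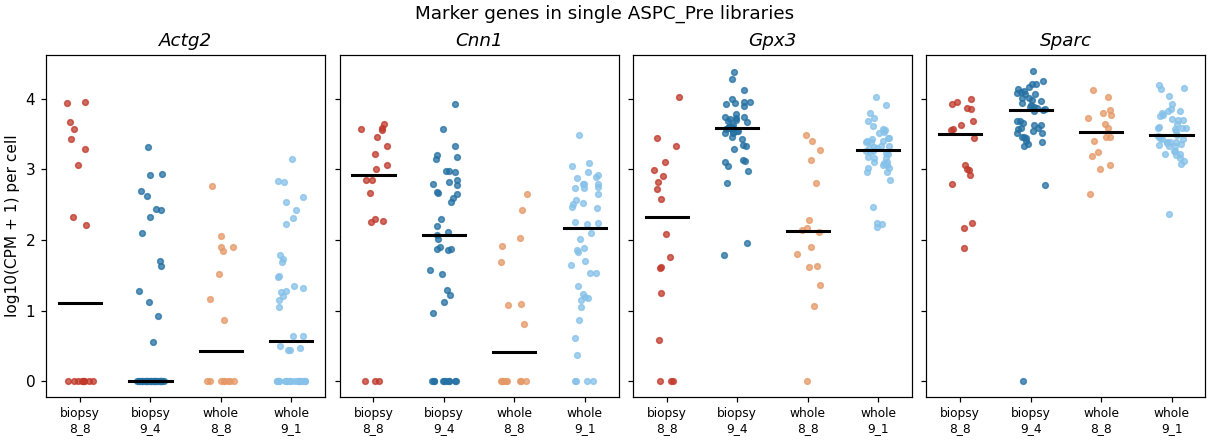
Levels of the 4 marker genes in single ASPC_Pre libraries as log10(CPM + 1), 1 point per library, in biopsies of batches 8_8 and 9_4 and whole cells of batches 8_8 and 9_1. Sparc and Gpx3 are spread over the upper part of the axis in biopsies of batch 9_4, whereas Actg2 is at 0 in 9 of 18 biopsies of batch 8_8 and 28 of 43 of batch 9_4.

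The ASPC_Pre biopsies were set against the biopsies of all other states to ask which genes set undifferentiated progenitors apart within Live-seq. Counts were summed per state and batch and tested with edgeR's quasi-likelihood test with batch as a block, and a gene was called at a Benjamini-Hochberg adjusted p under 0.05 and an absolute log2 fold change above 1. Of 13463 genes, 110 were called (0.817%), of which 9 were lower (0.0668%) and the others higher (0.75%), and all 110 had the same direction in both batches. That agreement is no separate support, since the same sums gave the calls. DESeq2 called 3.52%. The calls rested on both batches, since 0 genes were called without batch 8_8 and 4 without batch 9_4. For 58 of the higher genes at least 1 other state was listed at 0, so their fitted folds depend on the prior count and are not given one by one. The medians of lists below hold such genes too and carry the same limit. Since the markers had been chosen with these data known, their calls (adjusted p 0.00347 for Sparc, 0.0101 for Actg2 and Gpx3, and 0.0228 for Cnn1) are a description.

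Many genes of the matrix were among those higher. Of 16 matrix glycoproteins and proteoglycans tested 8 were called higher, of 15 collagens 6, and of 18 matrix enzymes and inhibitors 5, with median log2 fold changes of 6.98, 6.01 and 6.39 beside 0.19 over all genes tested. Examples with no state at 0 were Thbs1, a matricellular thrombospondin (log2 fold change 8.87 ± 0.82 SE, adjusted p = 0.00347 in edgeR), Lox, the enzyme that cross-links collagen (8.27 ± 0.85, adjusted p = 0.00402), and Col1a1, a chain of type I collagen (6.90 ± 0.97, adjusted p = 0.0117). Matrix genes were not particular to ASPC_Pre among the biopsies: other sums reached 6826 CPM of Lox and 5192 CPM of Col1a1, and against IBA biopsies alone none of these lists had a call, with 5 of 15 collagens positive (median -1.09). Contractile genes had 6 of 15 called higher (median 8.72), among them smooth muscle actin Acta2 (8.91 ± 0.96, adjusted p = 0.00347) and the myosin light chain Myl9 (9.5 ± 1.26, adjusted p = 0.00994). Over the 13 other sums, the median CPM was 0.1 for Thbs1, 0.2 for Lox, 0.3 for Col1a1, 1.9 for Acta2 and 0 for Myl9. The fitted folds of these genes thus also rest on values near 0. Annexins, galectins and S100 proteins had 4 of 12 (median 2.47), targets of YAP and TEAD 3 of 9 (6.39), and secreted signals 3 of 24 (6.02). Against IBA biopsies alone, none of these lists had a call (medians 1.39, 0.99 and 2.04), nor did the contractile genes (median 2.45). Vim, the intermediate filament of mesenchymal cells, was higher by 3.46 ± 0.55 (adjusted p = 0.0161) and S100a6 by 2.90 ± 0.33 (adjusted p = 0.0044).

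No gene was called in either direction among 16 S phase genes (median -1.15), 16 immediate early and heat shock genes (median 3.22), 8 mitochondrially encoded mRNAs (median -1.0) or the DPP4, ICAM1 and CD142 subset lists. Among the lower genes with the largest fitted falls were genes that macrophages express. Ccl4, a chemokine, was listed at 0 in both batches of ASPC_Pre biopsies and reached 7695 CPM elsewhere (adjusted p = 0.00798), and Ctss, a lysosomal protease, was also listed at 0 in both (adjusted p = 0.0242). Tlr2, a receptor for bacterial lipoproteins, was at 0 and 0.6 CPM (adjusted p = 0.0161), and Acod1, the itaconate-producing enzyme, at 0 and 0.2 CPM (adjusted p = 0.0251).

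Against the IBA biopsies alone, the other preadipocyte state, 3 of 13463 genes (0.0223%) were called. Tmsb4x, which encodes the actin-binding thymosin beta 4, was higher by 4.86 ± 0.65 on the log2 scale (adjusted p = 0.0457 in edgeR), at 6585 and 3502 CPM in batches 8_8 and 9_4. Prdx6, a peroxiredoxin, was higher by 3.88 ± 0.47 (adjusted p = 0.0301), at 1591 and 2823 CPM. The processed pseudogene Gm13394 (chr2:28933610-28934609) was lower by 8.04 on the log2 scale (SE 0.88, adjusted p = 0.0202), and its reads may be shared with its parent gene. The 4 markers were not called here, with adjusted p of 0.192 for Actg2, 0.253 for Gpx3, 0.749 for Cnn1 and 1 for Sparc. DESeq2 called 2.05%. The edgeR calls also rested on single batches, since all 3 were lost without batch 7, without batch 8_8 and without batch 9_4.

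Between the batches of biopsies the contractile genes stood out as a group. There is 1 sum per batch, so no test can be made, and batch, culture and depth cannot be told apart. Of 16 contractile genes, 15 were higher in the biopsies of batch 8_8 (median log2 ratio 1.65), where 32.4% of all 13563 genes were higher (median -0.53). The list took 5.42% of the counts of batch 8_8 and 1.71% of those of batch 9_4, beside 1.99% and 1.41% in the whole cells of batches 8_8 and 9_1. Per biopsy the share was 0.494% at the lowest, 4.61% at the median and 10.6% at the highest in batch 8_8, and 0.317%, 1.26% and 5.99% in batch 9_4, so the ranges overlapped. The exception was Des, the muscle intermediate filament, at 0 and 12.1 CPM.

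Acta2 was at 143.3, 22161 and 57934 CPM (lowest, median and highest) in biopsies of batch 8_8 and at 13.4, 3591 and 36490 CPM in batch 9_4. As sums it stood at 26048 and 6858 CPM, beside 6878 and 3908 CPM in whole cells of batches 8_8 and 9_1. Myl9, with counts in 16 of 18 and 37 of 43 biopsies, was at 2216 and 597.7 CPM beside 580 and 495.3 CPM in the whole cells. For both genes the biopsies of batch 8_8 were thus the sum that differed from the other 3, by 3.80 and 3.71 times over the biopsies of batch 9_4 and by 3.79 and 3.82 times over the whole cells of the same batch. The tropomyosin gene Tpm1 differed less, at 7075 and 3105 CPM in the biopsies and at 2863 and 2048 CPM in the whole cells. Against whole cells, 11 of 16 list genes were higher in the biopsies of batch 8_8 (median log2 ratio 1.11, with 28.1% of all genes higher) and 8 of 16 in those of batch 9_4 (median 0.0043, with 35.7% of all genes higher). After the adipogenic cocktail 0 of 16 were higher than in ASPC_Pre biopsies of the same batch (median -2.83), where 41.8% of all genes were.

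Within each batch some of the contractile genes varied together from biopsy to biopsy. Of the genes seen in at least 50% of the biopsies of both batches after thinning, 4 followed Acta2 with Spearman rho of at least 0.5 in both: Myl9 (0.681 over 18 and 0.702 over 43 biopsies), the tropomyosin Tpm2 (0.741 and 0.625), Cnn1 (0.611 and 0.635) and the LIM protein gene Fhl1 (0.521 and 0.532). The median rho over all these genes was 0.069 and 0.015. Of these, Fhl1 is not on the contractile list. Other members of the list did not follow Acta2 to this degree, such as the non-muscle myosin Myh9 (0.08 and -0.009) and the caldesmon Cald1 (0.467 and 0.031), and some pairs of members had rho near or below 0, such as Actg2 and Cnn2 (-0.176 in batch 8_8) and Tagln and Vcl (-0.188 in batch 9_4). The contractile share had rho of 0.193 and -0.01 with the number of genes detected, and rho of 0.034 and -0.073 with the share of collagens. The points of each correlation share a library preparation, and all biopsies were thinned to the same counts.

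**Figure D3:**
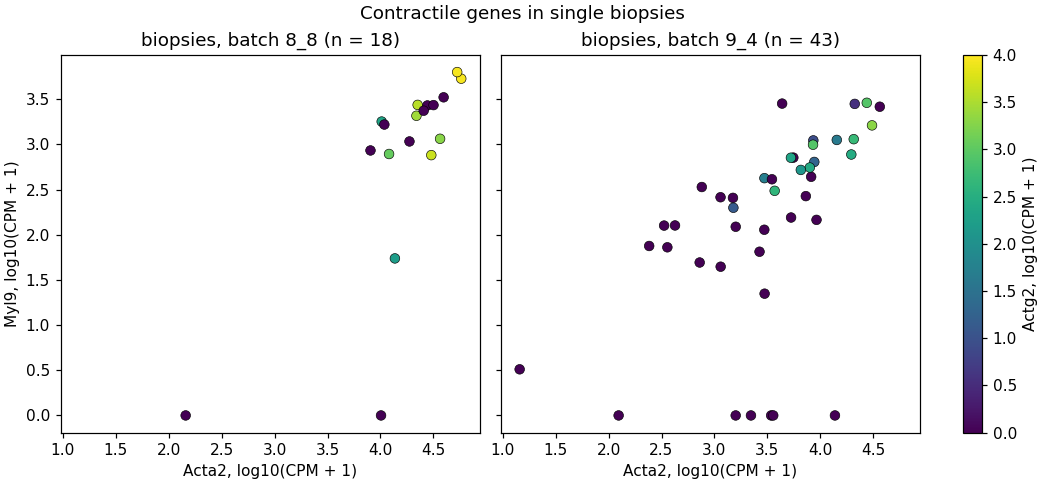
Myl9 against Acta2 in single biopsies of batch 8_8 (left) and batch 9_4 (right), both as log10(CPM + 1), with the points shaded by Actg2 on the same scale. The genes rise together across biopsies (Spearman rho 0.681 and 0.702), and Actg2 is high mainly in biopsies with high Acta2.

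Promoters of 3 contractile genes, and of an immediate early gene of the list described next, are shown for the CArG box, the DNA element bound by serum response factor, which acts at contractile and immediate early genes. Each is the 250 bases before a RefSeq transcript start (GRCm38.p6), written in the gene's own direction. Capitals mark exact CArG boxes, found on both strands, in Myl9 (chr2:156775214-156775463, plus strand), Cnn2 (chr10:79988350-79988599, plus strand) and Zfp36 (chr7:28379229-28379478, minus strand), and the 2 boxes that are 1 letter off in Acta2 (chr19:34255374-34255623, minus strand).
Acta2: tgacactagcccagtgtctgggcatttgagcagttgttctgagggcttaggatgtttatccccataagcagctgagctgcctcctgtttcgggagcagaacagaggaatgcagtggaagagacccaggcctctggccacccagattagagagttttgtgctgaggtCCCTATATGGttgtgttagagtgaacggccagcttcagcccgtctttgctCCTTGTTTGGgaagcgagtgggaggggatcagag
Myl9: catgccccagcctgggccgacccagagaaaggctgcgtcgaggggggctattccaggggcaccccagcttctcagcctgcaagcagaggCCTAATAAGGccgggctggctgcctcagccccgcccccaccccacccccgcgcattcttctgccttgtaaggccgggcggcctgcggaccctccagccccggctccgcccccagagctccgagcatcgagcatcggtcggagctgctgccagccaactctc
Cnn2: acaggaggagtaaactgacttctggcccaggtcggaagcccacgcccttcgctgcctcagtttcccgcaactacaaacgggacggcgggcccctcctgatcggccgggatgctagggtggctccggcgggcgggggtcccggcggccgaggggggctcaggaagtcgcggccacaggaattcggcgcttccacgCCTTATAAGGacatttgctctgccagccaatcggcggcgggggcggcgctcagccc
Zfp36: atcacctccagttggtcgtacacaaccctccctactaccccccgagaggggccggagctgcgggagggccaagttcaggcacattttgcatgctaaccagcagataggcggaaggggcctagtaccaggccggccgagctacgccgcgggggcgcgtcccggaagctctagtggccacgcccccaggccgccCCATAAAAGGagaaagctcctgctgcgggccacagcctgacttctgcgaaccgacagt
An exact box stood in 3 of 14 promoters of contractile genes (21.4%; Cnn2, Myl9 and Vcl) and in 5 of 19 of immediate early and heat shock genes (26.3%; Zfp36 and 4 of Egr2), against 1.47% of all 32851 promoters. Promoters were found for 13 of 16 and 15 of 17 genes, and several starts of 1 gene overlap. The windows of Cnn1 and Junb, for example, held no exact box and none 1 letter off. Boxes 1 letter off were in 17.5% of all promoters. A match describes the letters in this window and is not evidence of binding.

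Immediate early genes, which are transcribed within minutes of a stimulus, gave the largest median difference among the gene lists between the batches of biopsies. All 17 genes of the immediate early and heat shock list were higher in the biopsies of batch 8_8 than in those of batch 9_4 (median log2 ratio 3.61) and than in the whole cells of batch 8_8 (2.33). Of all 13563 genes, 32.4% and 28.1% were higher in the same comparisons. The list took 0.996% of the counts in batch 8_8 and 0.0905% in batch 9_4, beside 0.143% and 0.0999% in the whole cells. Per biopsy the share was 0.0322%, 0.828% and 2.03% (lowest, median and highest) in batch 8_8 and 0%, 0.0705% and 0.225% in batch 9_4. In the whole cells of batch 8_8 it was 0.0291%, 0.147% and 0.222%. The highest biopsy of batch 9_4 and the highest whole cell of batch 8_8 thus lay below the median biopsy of batch 8_8, although the ranges overlapped at the low end.

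Junb, which encodes a subunit of the AP-1 transcription factor, had counts in 13 of 18 biopsies of batch 8_8 and 32 of 43 of batch 9_4. Its values were 0, 783.6 and 9275 CPM in batch 8_8 and 0, 66.6 and 426.6 CPM in batch 9_4. As sums, Junb stood at 1877 CPM (95% interval 1835 to 1920) and 112.5 CPM (107.4 to 118), with 147.6 and 132 CPM in the whole cells. So a similar share of biopsies held the transcript in both batches and its level differed. Egr1, a zinc finger transcription factor, had counts in 14 of 18 and 13 of 43 biopsies and sums of 920 and 30.6 CPM, with 44.7 and 31.2 CPM in the whole cells. The nuclear receptor gene Nr4a1 was at 1498 and 99.9 CPM, with 23.6 and 111.8 CPM in the whole cells, and Klf6 at 1760 and 140 CPM, with 350 and 204.4 CPM. Single biopsies weighed heavily in some members: 1 biopsy held 72% of the Fosb counts and 1 held 63.1% of the Fos counts of batch 8_8. Hspa1a, a heat shock gene, had counts in 1 of 18 and 11 of 43 biopsies, and its mean over single biopsies was lower in batch 8_8 (8.96 against 11.8 CPM), so that 16 of 17 genes were higher by that measure.

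IBA biopsies of the same batch gave other values. Of the 17 genes, 3 were higher in IBA biopsies than in whole IBA cells of batch 8_8 (median log2 ratio -0.79, with 32% of all genes higher) and 6 were higher in IBA biopsies of batch 8_8 than of batch 9_4 (median -0.74, with 37.9% of all genes higher). In IBA biopsies of batch 8_8, Junb summed to 178.6 CPM and Nr4a1 to 6.01 CPM. The biopsies of batch 9_4 had 6 of 17 genes higher than the whole cells of batch 9_1 (median -0.22). That count was near the share over all genes, of which 35.7% were higher. Across biopsies the share of the list had rho of 0.507 over 18 and 0.300 over 43 with the number of genes detected. The part of the number of genes detected in this difference was not tested.

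**Figure D4:**
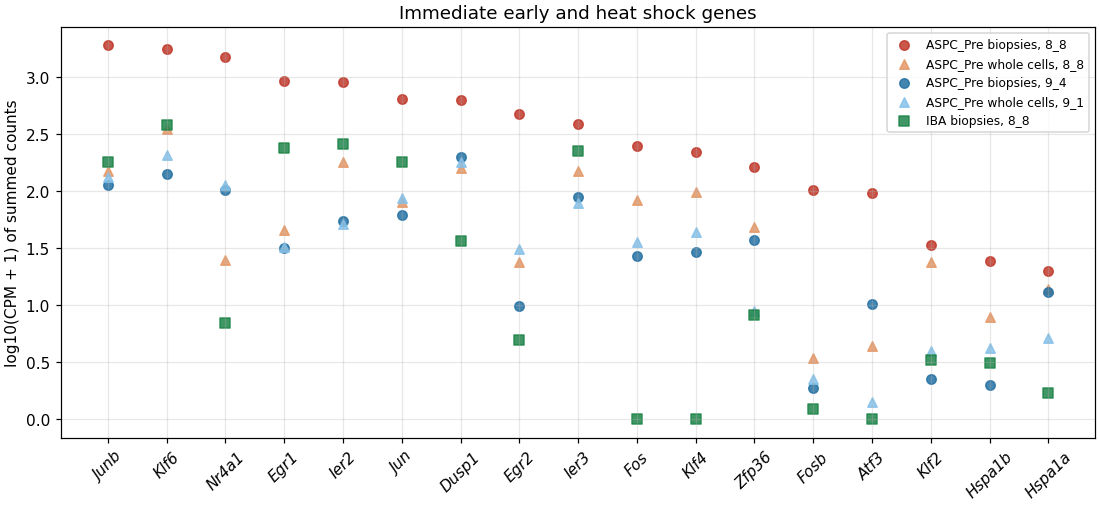
Summed levels of 17 immediate early and heat shock genes as log10(CPM + 1), 1 point per gene and sum, in ASPC_Pre biopsies and whole cells and in IBA biopsies of batch 8_8. The ASPC_Pre biopsies of batch 8_8 are the highest point for every gene, for example 1877 CPM for Junb against 147.6 CPM in whole cells of that batch.

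The difference between biopsies and whole cells (below, the biopsy effect) was compared between ASPC_Pre and IBA by an interaction term. It sets kinds of library side by side and does not measure what a biopsy does to a cell. The fit had no batch term and only batch 8_8 held both kinds, so kind and batch cannot be fully told apart. Of 13563 genes 1 was called (0.00737%), namely the stress-induced transcription factor gene Atf3 (p = 1.85e-06, adjusted p = 0.0251 in edgeR). Atf3 had counts in 3 of 18 biopsies of batch 8_8 (94.8 CPM as a sum) and 4 of 43 of batch 9_4 (9.30 CPM), where 1 biopsy held 94.6% of the counts. It was at 3.40 and 0.411 CPM in whole cells and had no counts in 14 and 17 IBA biopsies of batches 8_8 and 9_4. The call was lost without the 7 biopsies set apart above, while DESeq2 called 0.678% of the genes. On the list, 16 of 16 genes tested had a positive estimate (median 2.73, beside -0.05 over all genes). Macrophage markers were positive in 9 of 9 (median 5.32), from summed shares in ASPC_Pre biopsies of 0.000125% and 0.0086% of counts, and their part in the result was not tested.

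Set against whole ASPC_Pre cells over both pairs of batches, 0 of 13563 genes (0%) were called by edgeR, with 200 at an unadjusted p under 0.05, while DESeq2 called 71 (0.523%). The immediate early and heat shock list had a positive estimate in 16 of 16 genes (median 1.93, 3 at an unadjusted p under 0.05), beside a median of -0.29 over all genes. Contractile genes were positive in 10 of 15 (median 0.93), collagens in 3 of 15 (median -0.71) and matrix glycoproteins in 5 of 16 (median -0.58). With 2 sums a side and biopsies of 2 unlike batches, these are values and not calls.

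**Figure D5:**
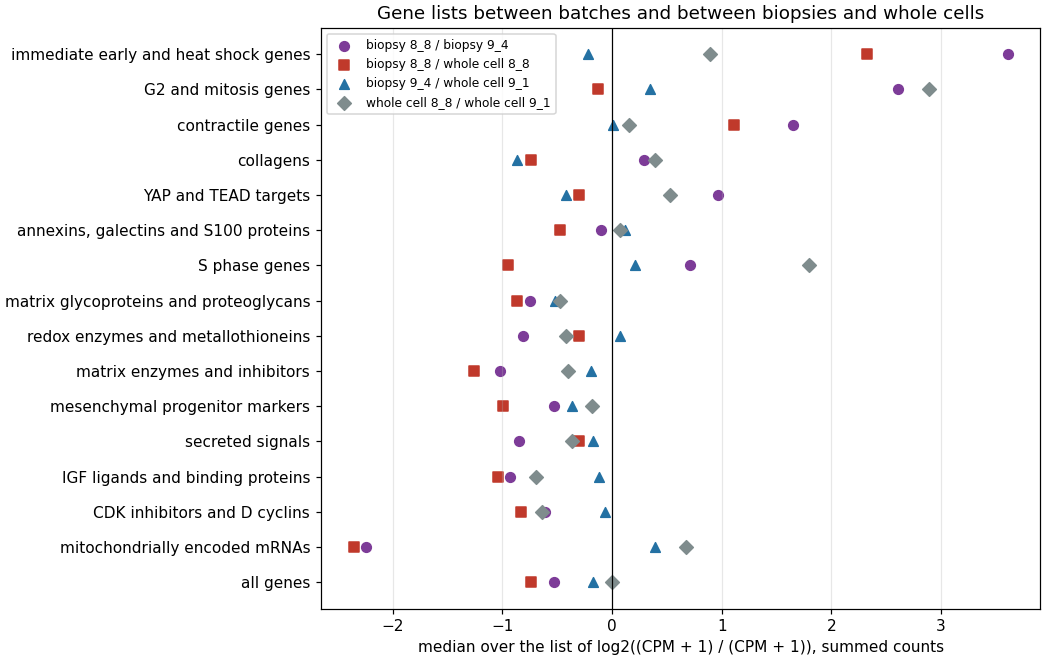
Median over each gene list of the log2 ratio of summed CPM, with 1 CPM added, for 4 comparisons of ASPC_Pre sums. Immediate early and heat shock genes lie at 3.61 between the batches of biopsies and at 2.33 between biopsies and whole cells of batch 8_8, contractile genes at 1.65 and 1.11, and mitochondrially encoded mRNAs at -2.24 and -2.36.

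Matrix genes were compared by kind between the batches. Of 16 collagens, 10 were higher in the biopsies of batch 8_8, where 32.4% of all genes were higher, and the list took 0.723% and 0.316% of the counts. Col1a1 (chr11:94936224-94953042) was found in 18 of 18 and 40 of 43 biopsies, at 315.9, 2551 and 15079 CPM in batch 8_8 and 0, 619.2 and 6210 CPM in batch 9_4. Its sums were 3665 and 873.3 CPM, and 2475 and 1825 CPM in the whole cells. Of 18 matrix glycoproteins, 13 were lower in batch 8_8, where 62.4% of all genes were lower, and the list took 1.23% and 2.00%. Bgn, a small proteoglycan that binds collagen, was at 1199 and 3969 CPM, whereas Thbs1 was at 4431 and 2459 CPM. Of 18 matrix enzymes and inhibitors, 14 were lower in batch 8_8, with 2143 and 4210 CPM of Lox and 437.2 and 2294 CPM of the protease inhibitor Timp1.

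Across biopsies the matrix lists varied together in both batches. The share of collagens had rho of 0.686 over 18 and 0.758 over 43 biopsies with that of glycoproteins, and 0.589 and 0.737 with that of matrix enzymes. Glycoproteins and enzymes had rho of 0.570 and 0.888. Collagens and contractile genes, by contrast, had the values near 0 given above.

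Secreted signals were lower in batch 8_8 (0.326% and 0.963% of counts). Cck, which encodes the peptide hormone cholecystokinin (chr9:121489824-121495694), had counts in 6 of 18 and 43 of 43 biopsies, with sums of 150.6 and 3445 CPM. Whole cells showed the same order, with 520 CPM in batch 8_8 and 3908 CPM in batch 9_1. The chemokine gene Ccl2 had counts in 4 of 18 and 40 of 43 biopsies, at 61.9 and 1050 CPM, with 543.9 and 959.2 CPM in the whole cells. Csf1, the macrophage growth factor, was by contrast at 1010.6 and 690 CPM. Igfbp4, an IGF-binding protein gene, was at 534.2 and 393.5 CPM, and the WNT antagonist gene Sfrp1 at 187.8 and 381.9 CPM.

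Redox enzymes and metallothioneins, a list that includes Gpx3, were lower in batch 8_8 in 15 of 20 genes (median log2 ratio -0.82, beside 62.4% lower and a median of -0.53 over all genes), with 0.906% and 1.99% of the counts. Hmox1, which degrades haem, was at 933.5 and 3565 CPM, with 685.2 and 2057 CPM in whole cells of batches 8_8 and 9_1. The metallothionein gene Mt1 had counts in 6 of 18 and 43 of 43 biopsies, at 32.2 and 523.4 CPM, with 137 and 502.5 CPM in the whole cells. Sod3, the extracellular superoxide dismutase gene, was at 4.99 and 393.7 CPM, with 14.6 and 338.6 CPM in the whole cells. For Hmox1, Mt1 and Sod3 the whole cells thus showed the same order of batches as the biopsies. By the mean over single biopsies, 14 of 20 list genes were lower in batch 8_8, and others were higher. Among the higher ones, Txnrd1 was at 1578.3 CPM in batch 8_8 and 397.8 CPM in batch 9_4 by that measure. Txn1 was at 564.7 and 405.2 CPM and Srxn1 at 231.1 and 135.5 CPM, and Gpx1 was also higher in batch 8_8.

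Genes of G2 and mitosis also differed between batches in biopsies and in whole cells alike. Of 16 genes of G2 and mitosis, 15 were higher in biopsies of batch 8_8 than of batch 9_4 (median log2 ratio 2.61), where 32.4% of all genes were higher. In whole cells, 16 of 16 were higher in batch 8_8 than in batch 9_1 (median 2.89, with 49.2% of all genes higher). The list took 0.256% and 0.0428% of the counts in biopsies and 0.272% and 0.0324% in whole cells. No count of the list was found in 5 of 18 and 9 of 43 biopsies. Cdk1, the kinase that drives entry into mitosis, was at 369.1 and 81.1 CPM in biopsies and 323.1 and 47.5 CPM in whole cells. The S phase gene Rrm2, a subunit of ribonucleotide reductase, was at 1744 and 514.8 CPM in the biopsies. Other S phase genes went either way. As means over single biopsies of batches 8_8 and 9_4, Mcm5 was at 380.6 and 18.4 CPM, but Mcm2 at 0 and 20.9 CPM and Mcm3 at 17.5 and 25.1 CPM. D cyclins and CDK inhibitors had 1 of 10 genes higher in biopsies of batch 8_8, beside 32.4% of all genes. Ccnd2 was at 411.01 and 2832 CPM in biopsies and 1315 and 2302 CPM in whole cells, and Ccnd1 at 30.7 and 1099 CPM in biopsies and 181 and 1008.3 CPM in whole cells.

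Mitochondrially encoded mRNAs behaved unlike the genes of G2 and mitosis, in that biopsies of batch 8_8 and whole cells of batch 8_8 differed. The list took 0.325% of the counts in biopsies of batch 8_8, 1.89% in those of batch 9_4, and 1.76% and 0.909% in the whole cells. Of 10 genes 8 were lower in biopsies than in whole cells of batch 8_8 (median -2.36, with 65.6% of all genes lower) and the other 2, mt-Co2 and mt-Atp6, were listed at 0 in both. For mt-Nd1, a subunit of complex I, the values were 458.9 CPM in biopsies and 4842 CPM in whole cells of batch 8_8, and 5209 and 1821 CPM in batches 9_4 and 9_1. Biopsies of batch 9_4 were widely spread, and the highest held 22.8% of its kept counts in the list. Malat1, a nuclear RNA, had counts in 3 of 18 and 34 of 43 biopsies, at 24.4 and 1237 CPM, with 2203 and 1081 CPM in the whole cells. A single biopsy held 50% of the Malat1 counts of batch 9_4.

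The remaining lists of the progenitor state were mixed. General mesenchymal progenitor markers took 1.13% and 1.41% of the counts, with 10118 and 11096 CPM of Vim. Ly6a, which encodes the stem cell antigen SCA-1, had counts in 7 of 18 and 42 of 43 biopsies, at 226.5 and 1256 CPM, and Pdgfra, a growth factor receptor that marks ASPCs, in 4 of 18 and 23 of 43, at 106.2 and 49.7 CPM. Annexins, galectins and S100 proteins took 1.60% and 2.14%, with Lgals1 at 2875 and 2831 CPM. Targets of YAP and TEAD took 0.440% and 0.220%, with Ankrd1 at 1285 and 191.7 CPM and Ctgf at 569.4 and 481.2 CPM.

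Markers of the described subsets differed widely in how many biopsies held them. Dpp4 was listed at 0 in batch 8_8 and at 0.13 CPM in batch 9_4, and Pi16 at 0 in both, whereas Anxa3 of the same list was in 11 of 18 and 43 of 43 biopsies (788.4 and 1720 CPM). Icam1 was listed at 0 in batch 8_8 and had counts in 20 of 43 biopsies of batch 9_4 (82.7 CPM), and F3 was in 11 of 18 and 37 of 43 biopsies (363.1 and 982.7 CPM). Pparg had counts in 1 of 18 and 8 of 43 biopsies (0.499 and 7.48 CPM). Of the early adipogenic regulators, Cebpd was in 6 of 18 and 28 of 43 biopsies (140 and 76.9 CPM). Of genes of the mature adipocyte, Adipoq, Plin1, Cidec, Lep, Retn and Cfd were listed at 0 in both batches, and Lpl had counts in 0 of 18 and 21 of 43 biopsies (90.03 CPM in batch 9_4). Other genes of lipid metabolism on that list had counts, with Fasn, the fatty acid synthase gene, in 9 of 18 and 30 of 43 biopsies (709.5 and 101.6 CPM), the desaturase gene Scd1 in 2 of 18 and 38 of 43, and the lipase gene Pnpla2 in 1 of 18 and 22 of 43. For the 0 of 18 biopsies with Lpl, the exact 95% upper limit is 18.5%.

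Markers of other cell types were low as sums, with exceptions. Macrophage markers took 0.000125% and 0.0086% of the counts of batches 8_8 and 9_4, with Tyrobp and Ctss at 0, and 3 and 7 of 10 genes had any count. Csf1r, the receptor for CSF1, had counts in 22 of 43 biopsies of batch 9_4 (42.7 CPM) and Lyz2 in 16 of 43 (26.03 CPM). Endothelial markers took 0.000125% and 0.00109%, with Cdh5, Tie1, Emcn and Vwf at 0, while Pecam1 had counts in 4 of 18 and 11 of 43 biopsies (1.25 and 0.692 CPM) and Egfl7 in 10 of 43, and no Schwann cell marker had a count. Mural cell markers, which bear on the contractile genes, took 0.0202% and 0.00597%. Rgs5, Kcnj8 and Higd1b were at 0, Ndufa4l2 had counts in 18 of 43 biopsies of batch 9_4, and the smooth muscle myosin gene Myh11 had counts in 2 of 18 and 4 of 43 biopsies. Of mesothelial and epithelial markers Krt19 was at 213.99 and 36.8 CPM, with Epcam, Krt8 and Krt18 at 0.

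Single genes that varied more between biopsies than others of their level were sought in batch 9_4 among genes present in 20% to 80% of its biopsies at a mean of at least 100 CPM. The excess was that of the SD of log2(CPM + 1) over a running median, and it had to be above 0 in batch 8_8 too. Under this rule the largest excess was that of Spp1 (2.37), which encodes the secreted phosphoprotein osteopontin. Spp1 had counts in 32 of 43 biopsies, at 0, 597.6 and 17686 CPM, exceeded 1000 CPM in 17, and had counts in 4 of 18 biopsies of batch 8_8. The next were Gm26917, Tmem119, Cnn1, Glipr2, Tagln2, Cxcl12, Nqo1, Thbs2 and Psmd1. The chemokine gene Cxcl12 had counts in 29 of 43 biopsies, at 0, 113.4 and 2919 CPM, and in 4 of 18 of batch 8_8, and the quinone reductase gene Nqo1 in 33 of 43, at 0, 129 and 5071 CPM. All 10 also had an excess above 0 in batch 8_8, which the rule asked for, but it was only 0.0128 for Gm26917 and 0.0099 for Tmem119. The rule left out Cyr61, for example, whose excess in batch 9_4 (1.11) was above that of Tmem119 (1.06).

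Some biopsies of batch 9_4 had a later counterpart. In 9 pairs an ASPC_Pre and an ASPC_Post library carry the label of the same cell. EGFP had counts in both libraries of 4 pairs, in the first alone in 2 and in the second alone in 3. Y-linked transcripts had counts in both libraries of 4 pairs, in the first alone in 2, in the second alone in 2 and in neither in 1, and in 1 of these pairs the first library had Y-linked counts and no Xist and the second Xist and no Y-linked counts. The lineage barcodes that the methods describe for following these cells were not analysed here, so the pairing was taken from the labels.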

How the data were processed

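Reads were aligned by the authors to mm10 with STAR and counted per gene with HTSeq, per the submitters' processing notes and the methods. The deposited values are raw whole-number counts, 1 column per library. A further 162 columns, of IBA cells sequenced whole after a biopsy, were not read. Names came from the identifiers, with 112 of 30452 features unnamed. Strand was not used in counting, so antisense and overlapping genes cannot be told apart.

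CPM were taken over the kept counts, that is, without the 20 genes most found in the negative controls, as listed by the study, and 91 genes of ribosomal proteins. For tests, counts were summed per state and batch of at least 3 cells (27 sums) and fitted with edgeR 4.0.16 (TMM, quasi-likelihood, R 4.3.3), keeping genes with at least 2 counts in 15% of cells of a scRNA-seq state. The edgeR fits against other biopsies had batch as a block, because the labels give the batch as shared. As a check, the difference between batches 8_8 and 9_4 correlated across 13463 genes between ASPC_Pre and IBA at 0.166, and with RAW264.7 biopsies at 0.053 (LPS) and 0.034 (mock). DESeq2 1.42.0 was an alternative, and Python 3.11.15, pandas 2.3.3 and SciPy 1.17.1 did the rest. P-values measure the spread between sums, which may be technical. Tests were tried on simulated counts first. Members and gene lists were chosen with earlier results of these data known. Genes named were the 4 markers, the 3 highest of each list, list genes called, up to 5 called genes per direction and test, and 10 genes of excess spread. Other list genes were named after their values were seen.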

Additional observations from a re-analysis of the deposited data

Results flagged for a closer look

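The difference of the biopsy effect between ASPC_Pre and IBA was tested for every gene by an interaction term, and Atf3 passed with a fitted log2 difference of 14.04 ± 2.19 (SE, adjusted p = 0.0251 in edgeR). IBA biopsies of batches 8_8 and 9_4 had no Atf3 counts, so the size of this estimate depends on the prior count. It also depends on the level in whole IBA cells. The transcript was in 3 of 18 and 4 of 43 ASPC_Pre biopsies, and 1 biopsy of batch 9_4 held 94.6% of the counts of its batch. The call was lost with batch as a block, after thinning and without 7 biopsies of few genes, high mitochondrial share or Xist.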

How the results depend on the processing

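The share of tested genes that were called moved with the processing. For ASPC_Pre against the other Live-seq states, 0.817% became 1.4% with edgeR's newer dispersion method, 3.52% with DESeq2, 0.7% (more calls among more genes) without the filter on low counts, 2.42% with every cell thinned to 50000 counts and 1.21% with no replicate block. Leaving out a batch gave 0% to 1.16%, with 0% without batch 8_8 and 0.0316% without batch 9_4. Of the 48 genes named for this test, 48 lost their call without batch 8_8, 46 without batch 9_4, 8 in DESeq2 and 2 after thinning. Against IBA biopsies, 0.0223% became 0.0594%, 2.05%, 0.0538% and 0.345% under the first 4 of these settings and 0.0817% with no replicate block, and leaving out a batch gave 0% to 0.0223%, with 0.00745% without batch 7 (another gene than the 3) and 0% without batch 8_8 or 9_4. For biopsies against whole cells, 0% became 0.523% with DESeq2 and 0.00345% without the filter, and leaving out a batch gave 0% to 0.147%, the highest without batch 9_4. For the difference of the biopsy effect, 0.00737% became 0% with the newer dispersion method, after thinning, with the replicate block and without the 7 biopsies set apart, 0.678% with DESeq2 and 0.0379% without the filter. Leaving out a batch gave 0% to 0.0958% there, the highest without batch 9_4 and 0% without batch 7, 8_8 or 9_1 or the batch labelled scRNA. The causes were not tested.

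Median genes detected kept their order at 20000 counts (1232 and 3775) and with at least 2 counts per gene (1206 and 3839). Alternatives chosen after seeing the data left the leading list counts close to their main values: 17 immediate early and heat shock genes, against whole cells and against batch 9_4 alike, became 16 of 17 after thinning or with the mean over cells, 15 contractile genes and 8 mitochondrial mRNAs stayed at those counts, 15 genes of G2 and mitosis became 14 after thinning, and 15 redox genes became 14 after thinning or with the mean over cells. None of these values changed direction. With 2 sums a side, tests between biopsies and whole cells can show only large differences, and levels near 1 read in batch 8_8 are limited by its depth.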
